A study of Mus musculus with 12 samples.

Results

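The genes described here release, export and modify sialic acid, the acidic sugar that caps many glycoproteins and gangliosides. They are 8 genes chosen by name and function, of 39171 genes in the count table in all, and the rule that picks them uses no measured value, though earlier results of these data were known when it was set. They are the sialidases Neu1, Neu2 and Neu3, the lysosomal partners Ctsa and Glb1, the lysosomal sialic acid exporter Slc17a5, and Siae and Casd1, which remove and add the O-acetyl group of sialic acid. Neu1 is the lysosomal sialidase, which takes terminal sialic acid off glycans. It needs Ctsa, the protective protein cathepsin A, to be stable and active in the lysosome, and the beta-galactosidase Glb1 joins them in a complex and removes galactose from glycans. Free sialic acid leaves the lysosome through sialin, the product of Slc17a5, and can be used again. In the kidney, proximal tubule cells take up filtered glycoproteins and degrade them in lysosomes.

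The mice were male and at most 3 months old, 12 in all, and each of the 3 groups held 4 mice with 1 kidney library per mouse. The sick knock-in group was homozygous for the M743T substitution in Gne (GNE M743T/M743T) and classed as sick, the healthy knock-in group had that same genotype and was classed as healthy, and the remaining group was wild-type and healthy. Gne encodes the epimerase and kinase with which sialic acid synthesis begins. The labels tell sick from healthy knock-in mice by phenotype alone and do not say what the sickness was. The strain is not stated by them. The tissue was whole kidney, so fewer cells of a type and less RNA per cell cannot be told apart in any value given here.

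Total counts were 10605546 to 22633684 in sick knock-in, 18191087 to 21925419 in healthy knock-in and 13189478 to 19493856 in wild-type libraries. Levels are given as CPM, counts scaled to a fixed effective library size. In a principal component analysis of log2 CPM, component 1 (60.9% of the variance) ran from -116 to -74.1 over the sick mice and from 32.3 to 61.8 over the 8 others. Component 2 (11.9%) placed wild-type mouse 2, at -84.7, away from the remaining mice of its group, which spanned 1.34 to 18.3. It also placed sick mouse 3, at -38.9, away from the other sick mice, which spanned 4.22 to 10.1. Markers of kidney cell types moved with the sick group. All 9 proximal tubule markers fell against either other group, with a summed level of 2841 to 4943 CPM in sick, 17102 to 21344 CPM in healthy knock-in mice and 15156 to 20721 CPM in wild-type mice. All 12 macrophage markers rose, with a summed level of 899.8 to 1839 CPM in sick, 208 to 268 CPM in healthy knock-in mice and 136 to 260.0 CPM in wild-type mice, and all 7 fibroblast markers rose too. Of 4 distal tubule markers 3 fell in each comparison, with a summed level of 186 to 222 CPM in sick, 436 to 731 CPM in healthy knock-in mice and 572 to 901 CPM in wild-type mice. All 5 T cell markers rose against wild-type and 1 against healthy knock-in mice. In the lists of the thick ascending limb, collecting duct, podocytes and endothelium, against wild-type 0 of 5, 1 of 6, 2 of 5 and 0 of 5 were higher and 2, 2, 0 and 1 lower. Against healthy knock-in mice 0, 1, 2 and 0 were higher and 0, 2, 2 and 1 lower. All 7 skeletal muscle markers were higher in healthy knock-in than in wild-type mice, with a summed level of 187 to 302 CPM against 0.566 to 2.41 CPM. In sick mice, at 1.09 to 12.9 CPM, 6 of the 7 were higher than in wild-type and all 7 lower than in healthy knock-in mice. Every marker of the 10 lists had counts in every group.

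In sick knock-in kidneys, 7 of the 8 genes were lower and Neu3 was higher, both against wild-type and against healthy knock-in mice, though Ctsa, Slc17a5, Siae and Casd1 were not called when libraries were scaled by totals in place of TMM. Glb1, Neu2 and Neu1 fell most, by 2.70-fold to 3.65-fold, Neu3 rose by 2.74-fold against wild-type, and the exporter Slc17a5, the protective protein Ctsa and the O-acetylation genes Siae and Casd1 differed by less. All 8 genes had enough counts to be tested. In edgeR's quasi-likelihood test, with p-values adjusted over 15589 genes by Benjamini-Hochberg and a threshold of 0.05, 1 of the 8 was called higher and 7 lower in sick knock-in against wild-type mice. Of all genes tested, 25.9% were called higher and 25.0% lower in that comparison. Against healthy knock-in mice the counts were again 1 higher and 7 lower, where 24.5% of all genes were called higher and 21.9% lower. The median log2 fold change of the 8 genes was -0.64 against wild-type and -0.71 against healthy knock-in mice, and that of all genes tested was 0.02 and 0.05. The sick libraries enter both comparisons, so these are not independent of each other.

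**Figure D1:**
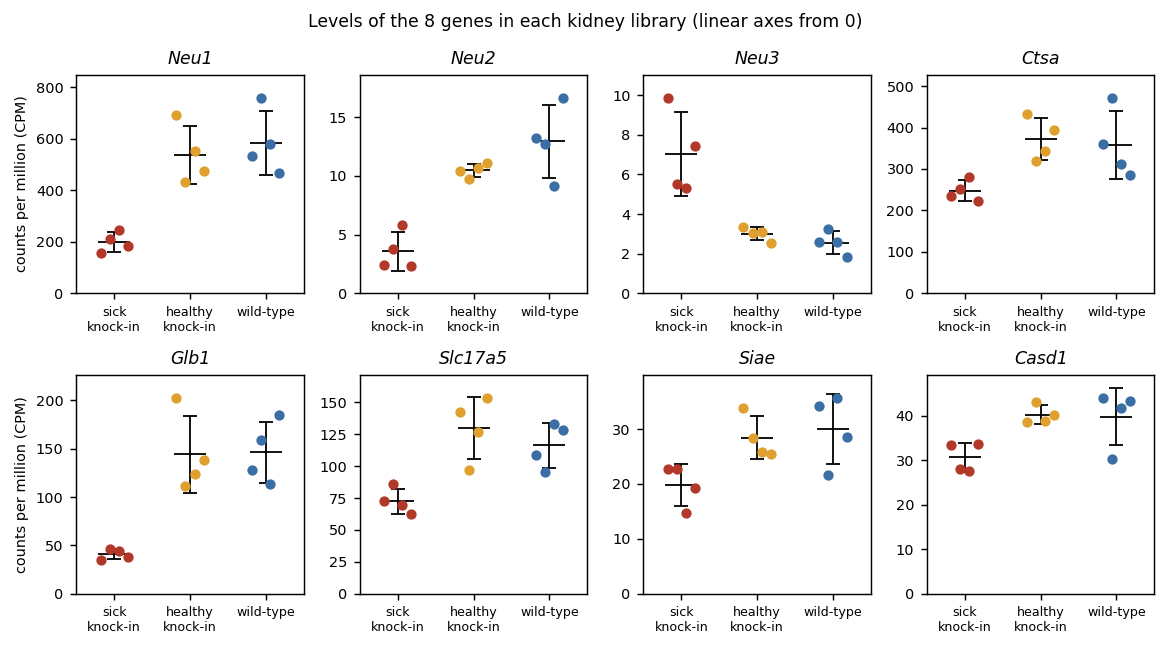
CPM of each of the 8 genes in each library (points), with the mean and SD of the 4 mice of a group (bar and whiskers), for sick knock-in, healthy knock-in and wild-type kidneys, on linear axes from 0. The sick points of Neu1, Neu2, Ctsa, Glb1 and Slc17a5 lie below those of both other groups, the sick points of Neu3 lie above them, and wild-type mouse 2 lies among the sick mice in Siae and Casd1.

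Neu1 (ENSMUSG00000007038, GRCm38 chr17:34931253-34935953, plus strand) had 158, 209, 247 and 185 CPM in sick knock-in mice, 691, 434, 552 and 477 CPM in healthy knock-in mice and 534, 759, 579 and 469 CPM in wild-type mice. The highest sick mouse was below the lowest mouse of either other group. Neu1 averaged 200 ± 37.8 CPM in sick, 539 ± 113 CPM in healthy knock-in mice and 585 ± 124 CPM in wild-type mice (SD, n = 4 each). Its log2 fold change in edgeR's test was -1.55 ± 0.20 (SE) in sick against wild-type mice, a 2.93-fold lower level with an adjusted p of 5.84e-05. Against healthy knock-in mice it was -1.43 ± 0.20, a 2.70-fold lower level with an adjusted p of 0.000128.

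Glb1 (ENSMUSG00000045594, chr9:114401076-114474898, plus strand), the lysosomal beta-galactosidase, had 34.9, 45.8, 44.4 and 37.6 CPM in sick knock-in mice, 202, 112, 124 and 139 CPM in healthy knock-in mice and 128, 159, 114 and 184.5 CPM in wild-type mice. The sick mice lay close together and far below the rest, while the healthy knock-in and wild-type mice overlapped. Glb1 averaged 40.7 ± 5.26 CPM in sick, 144 ± 40.2 CPM in healthy knock-in mice and 146 ± 31.7 CPM in wild-type mice (SD, n = 4 each). Its log2 fold change was -1.85 ± 0.21 in sick against wild-type mice (3.60-fold lower, adjusted p = 1.87e-05, edgeR) and -1.83 ± 0.21 against healthy knock-in mice (3.55-fold lower, adjusted p = 2.67e-05).

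Ctsa (ENSMUSG00000017760, chr2:164832873-164841032, plus strand) had 235, 252, 281 and 223 CPM in sick knock-in mice, 433, 320, 343 and 394 CPM in healthy knock-in mice and 359, 471, 313 and 285 CPM in wild-type mice. The groups did not overlap, but the highest sick mouse, at 281 CPM, was close to the lowest wild-type mouse, at 285 CPM. Its log2 fold change was -0.53 ± 0.17 in sick against wild-type mice (1.44-fold lower, adjusted p = 0.0204, edgeR) and -0.59 ± 0.17 against healthy knock-in mice (1.505-fold lower, adjusted p = 0.0129). The call against wild-type was lost without sick mouse 4, with an adjusted p of 0.0568, and with upper-quartile scaling, with an adjusted p of 0.0636. Scaled by library totals alone, the log2 fold change of Ctsa was 0.06 against wild-type (adjusted p = 0.765) and -0.00 against healthy knock-in mice (adjusted p = 0.995).

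That scaling matters for every gene with a small difference. The reported levels are scaled by TMM, which sets the bulk of genes equal, and its factors were 1.23 to 1.39 in sick, 0.804 to 0.933 in healthy knock-in and 0.839 to 0.901 in wild-type libraries. With library totals alone, the median log2 fold change of all genes was 0.61 in sick against wild-type and 0.63 in sick against healthy knock-in mice, in place of 0.02 and 0.05. Neu1, Neu2 and Glb1 were still called lower and Neu3 higher under that scaling in both comparisons, and the other 4 genes were not called. Relative to the shifted median, all of those 4 genes still lay below it. Of all called genes, 50.8% were higher in sick against wild-type mice under TMM and 84.0% under library totals, and against healthy knock-in mice the shares were 52.7% and 85.8%.

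**Figure D2:**
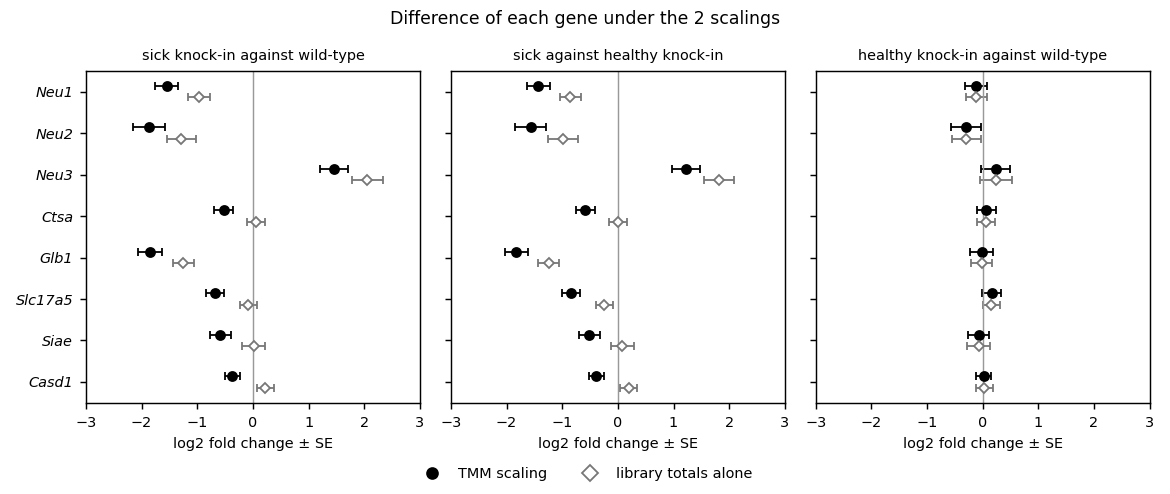
Log2 fold change with its SE (x axis) for each gene (y axis) in the 3 comparisons, with TMM scaling (filled circles) and with library totals alone (open diamonds). Neu1, Neu2 and Glb1 stay left of 0 and Neu3 right of 0 under both scalings in the comparisons of sick mice, where Siae and Casd1, and Ctsa against wild-type, change side under library totals, and every gene stays near 0 in healthy knock-in against wild-type mice.

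Ratios of 2 genes within a library are free of the scaling, and they separated Neu1 and Glb1 from Ctsa. The log2 ratio of Neu1 to Ctsa counts was -0.32 on average in sick mice, ranging from -0.57 to -0.19, against 0.52 (0.27 to 0.69) in healthy knock-in and 0.72 (0.57 to 0.89) in wild-type mice. Each sick mouse had fewer Neu1 than Ctsa counts, and each of the other 8 mice had more. The ratio of Glb1 to Ctsa was -2.61 (-2.75 to -2.46) in sick, -1.40 (-1.52 to -1.10) in healthy knock-in and -1.28 (-1.57 to -0.63) in wild-type mice. Per unit of Ctsa, Neu1 was thus 2.06-fold and Glb1 2.51-fold lower in sick than in wild-type mice, and 1.79-fold and 2.32-fold lower in sick than in healthy knock-in mice, with no overlap in any of these. The ratio of Neu1 to Glb1 was 2.29 in sick, 1.92 in healthy knock-in and 2.001 in wild-type mice, and its values in sick mice overlapped with those in wild-type mice but lay above those in healthy knock-in mice, by 0.37 on average. These ratios are given as values, with no test. How often the ratio of other pairs of genes separates the groups in this way was not counted, so the separations have no background beside them.

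**Figure D3:**
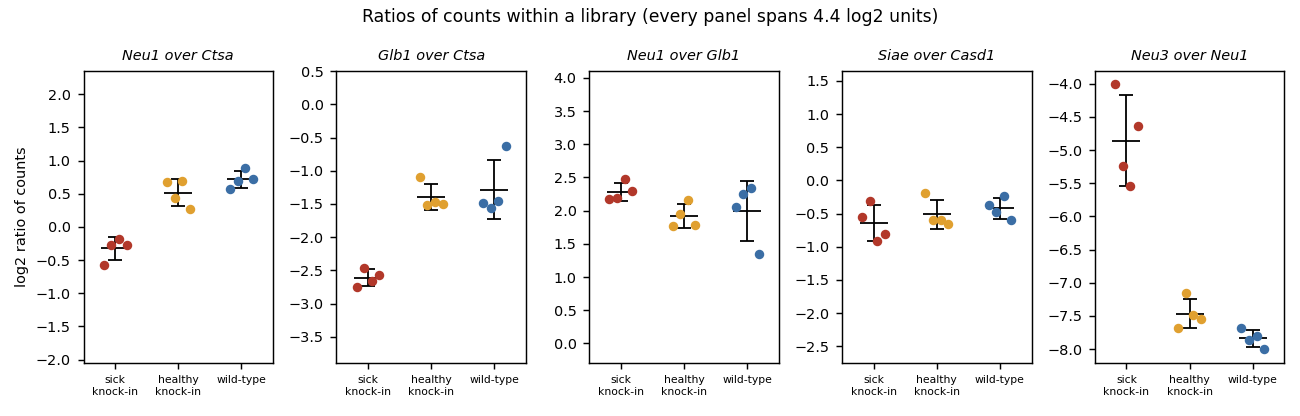
Log2 ratio of the counts of 2 genes in the same library (y axis; each panel spans the same number of log2 units), with points for mice and a bar and whiskers for the mean and SD of the 4 mice, for sick knock-in, healthy knock-in and wild-type kidneys. The sick points lie apart from both other groups in Neu1 over Ctsa, Glb1 over Ctsa and Neu3 over Neu1, while those of Siae over Casd1 overlap with both.

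To show the start of the 3 genes of the complex, the 100 bases before a RefSeq transcription start (GRCm38.p6) are printed 5′ to 3′ on the plus strand, with capitals for the CACGTG element. CACGTG is the core that TFEB, a transcription factor of many lysosomal genes, can bind. Coordinates of the stretches are chr9:114400978-114401077 for Glb1, chr2:164833673-164833772 for the more downstream of the starts of Ctsa, and chr17:34931153-34931252 for Neu1.
Glb1: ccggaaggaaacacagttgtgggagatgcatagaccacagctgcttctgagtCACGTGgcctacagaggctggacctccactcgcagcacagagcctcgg
Ctsa: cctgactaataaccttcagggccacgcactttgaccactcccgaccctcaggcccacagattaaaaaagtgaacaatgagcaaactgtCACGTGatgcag
Neu1: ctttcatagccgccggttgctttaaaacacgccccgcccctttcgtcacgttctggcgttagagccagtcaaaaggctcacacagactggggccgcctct
CACGTG reads the same on both strands. In windows of 300 bases, from 250 before to 50 after a start, it began at -48 from the start in Glb1 and at -12 and at 6 from that start of Ctsa. Both sites in Ctsa were also the longer TCACGTGA, which contains it. CACGTG was found in 7.15% of 32851 such windows of all genes and TCACGTGA in 0.974%. The letters did not occur in the windows of Neu1, Neu2, Neu3, Slc17a5 and Casd1 or at the other start of Ctsa, and 7 of the 8 genes had a window. These matches describe the sequence and were not tested against the levels.

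Slc17a5 (ENSMUSG00000049624, chr9:78536488-78588041, minus strand) had 72.4, 85.9, 69.3 and 62.5 CPM in sick knock-in mice, 143, 96.9, 127 and 153 CPM in healthy knock-in mice and 108, 95.3, 133 and 128 CPM in wild-type mice. No sick mouse reached the lowest mouse of either other group, at 95.3 CPM. It averaged 72.5 ± 9.84 CPM in sick mice, 129.9 ± 24.6 CPM in healthy knock-in mice and 116 ± 17.7 CPM in wild-type mice (SD, n = 4 each). The log2 fold change was -0.68 ± 0.17 in sick against wild-type mice (1.60-fold lower, adjusted p = 0.00418, edgeR) and -0.84 ± 0.17 against healthy knock-in mice (1.79-fold lower, adjusted p = 0.00127). Scaled by totals it was -0.08 (adjusted p = 0.648) and -0.24 (adjusted p = 0.187).

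The sialidases outside the lysosome moved in opposite directions. Neu2 (ENSMUSG00000079434, chr1:87509889-87597845, plus strand), the cytosolic sialidase, had 2.39, 3.82, 5.83 and 2.31 CPM in sick knock-in mice, 10.4, 9.76, 10.7 and 11.1 CPM in healthy knock-in mice and 13.3, 12.7, 9.10 and 16.6 CPM in wild-type mice. Every sick mouse was below every other mouse, and the healthy knock-in mice were the most alike, with an SD of 0.553 CPM. Its log2 fold change was -1.87 ± 0.28 in sick against wild-type mice (3.65-fold lower, adjusted p = 0.000165, edgeR) and -1.56 ± 0.28 against healthy knock-in mice (2.96-fold lower, adjusted p = 0.000673). These values rest on 45 to 255 counts per library.

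Neu3 (ENSMUSG00000035239, chr7:99811439-99828417, minus strand), the plasma membrane sialidase that acts on gangliosides, had 9.85, 5.51, 5.30 and 7.45 CPM in sick knock-in mice, 3.37, 3.04, 3.09 and 2.56 CPM in healthy knock-in mice and 2.59, 3.24, 2.60 and 1.83 CPM in wild-type mice. The lowest sick mouse was above the highest of the other 8 mice, and sick mouse 1 was highest. The log2 fold change was 1.45 ± 0.25 in sick against wild-type mice (2.74-fold higher, adjusted p = 0.000435, edgeR) and 1.22 ± 0.25 against healthy knock-in mice (2.33-fold higher, adjusted p = 0.00148). Counts of Neu3 were 28 to 243 per library. The log2 ratio of Neu3 to Neu1 counts, a pair chosen after the values were seen, was -4.86 in sick, -7.47 in healthy knock-in and -7.84 in wild-type mice, a 7.91-fold higher ratio in sick than in wild-type and 6.10-fold higher than in healthy knock-in mice. The ratio was also 1.30-fold higher in healthy knock-in than in wild-type mice. Those groups only just did not overlap, at -7.68 to -7.16 and -8.00 to -7.69, and this difference was not tested.

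Per length of exon, Neu1 remained the leading sialidase in every group. It stood at 53.5 CPM per kb in sick, 144 in healthy knock-in and 157 in wild-type mice, where Neu2 stood at 1.39, 4.05 and 4.99 and Neu3 at 2.10, 0.902 and 0.768 CPM per kb. Neu3 was below Neu2 in healthy knock-in and wild-type mice. In sick mice Neu3 was above Neu2 on average, clearly so in mice 1 and 4, by little in mouse 2 (1.65 against 1.47 CPM per kb), and it was below Neu2 in mouse 3 (1.58 against 2.25 CPM per kb). Of the CPM per kb of these 3 sialidases, Neu3 held 3.92% ± 1.84 in sick, 0.616% ± 0.0963 in healthy knock-in and 0.471% ± 0.0456 in wild-type mice (SD, n = 4 each). Neu1 still held 93.7% in sick, 96.6% in healthy knock-in and 96.3% in wild-type mice. Neu4, the remaining mouse sialidase, had 1 count in 1 of the 12 libraries and was not tested. Among the other genes, Ctsa stood at 52.5, 79.0 and 75.7 CPM per kb, Slc17a5 at 20.002, 35.8 and 32.1, and Glb1 at 13.5, 47.9 and 48.7, in sick, healthy knock-in and wild-type mice in that order. Glb1 was thus above Slc17a5 per length in healthy knock-in and wild-type means and below it in the sick mean. Casd1 stood at 7.59, 9.96 and 9.86 CPM per kb in sick, healthy knock-in and wild-type mice. That was above 65.6%, 71.4% and 70.7% of the tested genes with an exon length. Siae, at 1.89, 2.71 and 2.86 CPM per kb, was above 30.7%, 41.4% and 42.8% of them.

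The O-acetylation genes were lower in sick mice by 1.30-fold to 1.505-fold, calls that do not hold under every scaling. Siae (ENSMUSG00000001942, chr9:37555698-37649655, plus strand), the esterase that removes O-acetyl groups from sialic acid, had 22.8, 22.6, 14.7 and 19.3 CPM in sick knock-in mice, 33.9, 28.4, 25.8 and 25.5 CPM in healthy knock-in mice and 34.1, 21.6, 35.6 and 28.5 CPM in wild-type mice. Wild-type mouse 2 lay among the sick mice, and no healthy knock-in mouse did. The log2 fold change was -0.59 ± 0.19 in sick against wild-type mice (1.505-fold lower, adjusted p = 0.0186, edgeR) and -0.51 ± 0.19 against healthy knock-in mice (1.43-fold lower, adjusted p = 0.0381). The call was lost against wild-type without wild-type mouse 1 (adjusted p = 0.0514) or 3 (adjusted p = 0.0538), and against healthy knock-in mice without sick mouse 3 or 4 or healthy knock-in mouse 1 or 2 (adjusted p = 0.0686 to 0.109). The log2 fold change turned to 0.01 and 0.08 under the scaling by totals.

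Casd1 (ENSMUSG00000015189, chr6:4600839-4643355, plus strand), the Golgi enzyme that adds O-acetyl groups to sialic acid, had 33.4, 28.1, 27.5 and 33.7 CPM in sick knock-in mice, 38.5, 43.2, 38.8 and 40.3 CPM in healthy knock-in mice and 43.9, 30.2, 41.8 and 43.3 CPM in wild-type mice. Here too wild-type mouse 2 lay among the sick mice. The log2 fold change was -0.37 ± 0.14 in sick against wild-type mice (1.30-fold lower, adjusted p = 0.0349, edgeR) and -0.39 ± 0.14 against healthy knock-in mice (1.31-fold lower, adjusted p = 0.0316). The call was lost against wild-type without sick mouse 2 or 3 or wild-type mouse 1, 3 or 4 (adjusted p = 0.0707 to 0.0906), and against healthy knock-in mice without sick mouse 2 or 3 or healthy knock-in mouse 2 or 4 (adjusted p = 0.0547 to 0.0834). Scaled by library totals alone, it turned to 0.22 and 0.20. The log2 ratio of Siae to Casd1 counts was -0.64 in sick, -0.51 in healthy knock-in and -0.42 in wild-type mice, and all 3 groups overlapped.

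Non-overlap of the mice gave a similar picture. Neu1, Neu2, Ctsa, Glb1 and Slc17a5, 5 of the 8 genes, were lower in every sick than in every wild-type mouse, which held for 20.6% of all genes tested. Against healthy knock-in mice the count was 7 of 8, all but Neu3, and it held for 23.2% of all genes. With CPM of library totals, Neu1, Neu2 and Glb1 were the ones that stayed without overlap on the lower side in both comparisons, and Neu3 on the higher side. The shares of all genes given above are for TMM and the lower side. No share was counted for library totals or the higher side, so these separations have no background beside them. Without wild-type mouse 2 all 8 genes were still called in sick against wild-type mice.

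Healthy knock-in mice, which carry the same genotype as the sick mice, gave no call against wild-type mice in any of the 8 genes. None passed edgeR's test, none had an unadjusted p under 0.05, and DESeq2 called 0 of them as well. The log2 fold changes ran from -0.30 ± 0.27 for Neu2 (adjusted p = 0.912) to 0.23 ± 0.25 for Neu3 (adjusted p = 0.913), with Neu1 at -0.12 ± 0.20 (adjusted p = 0.931), Glb1 at -0.02 ± 0.20 (adjusted p = 0.987) and Slc17a5 at 0.16 ± 0.16 (adjusted p = 0.912). The SEs, at 0.14 to 0.27, set how small a difference could be seen. In that comparison 0.308% of all genes tested were called higher and 0.00641% lower, and 1.80% were lower in every healthy knock-in than in every wild-type mouse, where 0 of the 8 genes were.

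Some counts of the 8 genes may include reads of neighbours, since no source used here states whether the reads were counted by strand. Exons of Neu2 and of Ngef on the opposite strand share 123 bases, and Ngef averaged 24.9 CPM in sick, 66.5 CPM in healthy knock-in mice and 81.3 CPM in wild-type mice, with a log2 fold change of -1.71 against wild-type (adjusted p = 2.22e-05, edgeR). It moved in the same direction as Neu2. Exons of Ctsa share 495 bases with Pltp on the opposite strand, which went the other way, at 40.0 CPM in sick, 16.1 CPM in healthy knock-in mice and 14.1 CPM in wild-type mice, well below Ctsa itself. Ctsa also shares 324 bases with Neurl2 on that strand, at 1.10, 0.545 and 0.530 CPM in sick, healthy knock-in and wild-type mice. Siae shares 741 bases with Tbrg1 on the opposite strand, at 64.3 CPM in sick, 40.5 CPM in healthy knock-in mice and 45.9 CPM in wild-type mice, above Siae itself. Siae also shares 391 bases with Spa17 on the opposite strand, at 1.32, 2.88 and 4.18 CPM in the same order. Spa17 fell as Siae did, by 1.67 on the log2 scale against wild-type (adjusted p = 0.00403, edgeR). Glb1 shares 165 bases with Tmppe on the same strand, at 27.4, 41.8 and 38.3 CPM in sick, healthy knock-in and wild-type mice. How much such reads add to the 8 genes was not tested.

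Beyond the 8 genes, the enzymes that recycle the freed sugar were lower in part. Of 6 tested genes of sialic acid breakdown and hexosamine salvage, 0 were higher and 3 lower in sick against wild-type mice, and 1 was higher and 4 lower against healthy knock-in mice. Beside this and each list below stand the shares of all genes tested. With TMM scaling these are 25.9% higher and 25.0% lower against wild-type, and 24.5% and 21.9% against healthy knock-in mice. Under scaling by totals, 8420 of the 15589 genes tested were called higher and 1605 lower against wild-type. Against healthy knock-in mice 8581 were then higher and 1425 lower. Amdhd2, the N-acetylglucosamine-6-phosphate deacetylase, averaged 31.0 ± 5.62 CPM in sick, 82.8 ± 10.9 CPM in healthy knock-in mice and 99.8 ± 34.7 CPM in wild-type mice, with a log2 fold change of -1.69 against wild-type (adjusted p = 5.27e-05, edgeR). Gnpda1, a glucosamine-6-phosphate deaminase, averaged 44.0 ± 7.20 CPM in sick, 125 ± 20.3 CPM in healthy knock-in mice and 127 ± 7.26 CPM in wild-type mice (log2 fold change -1.53, adjusted p = 7.76e-06). Both were also called lower against healthy knock-in mice, at -1.42 and -1.51. Renbp, which interconverts N-acetylmannosamine and N-acetylglucosamine, was lower in both comparisons, at -0.72 and -0.68. It was at -0.13 and -0.09 and not called with library totals alone. Npl, the lyase that splits free sialic acid, was called lower against healthy knock-in mice, at -0.79 (adjusted p = 0.00284), and stood at -0.44 against wild-type (adjusted p = 0.0525). The gene called higher against healthy knock-in mice was Gnpda2, the paralog of Gnpda1, at 0.56 (adjusted p = 0.0205), named after its value was seen. That call was lost without sick mouse 1 or 2 or healthy knock-in mouse 2 or 4. Under scaling by totals, Npl stood at -0.21 against healthy knock-in mice (adjusted p = 0.333) and was no longer called, and Gnpda2 was called higher in both comparisons, so that the 6 genes held 1 higher and 2 lower calls against wild-type and 2 of each against healthy knock-in mice.

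On the side of synthesis, 3 of 5 tested genes were lower in sick mice in each comparison. Cmah, which turns N-acetylneuraminic acid into N-glycolylneuraminic acid in mice, averaged 27.0 ± 5.16 CPM in sick, 105 ± 6.44 CPM in healthy knock-in mice and 96.3 ± 19.8 CPM in wild-type mice. Its log2 fold change was -1.83 against wild-type (adjusted p = 6.84e-06, edgeR) and -1.95 against healthy knock-in mice (adjusted p = 6.25e-06). Cmas, which activates sialic acid to its CMP form, was at -0.71 and -0.55, and Slc35a1, the Golgi carrier of that form, was called lower against wild-type, at -0.49, and stood at -0.19 against healthy knock-in mice (adjusted p = 0.175). Gne was called lower against healthy knock-in mice, at -0.78 (adjusted p = 0.0134), and stood at -0.54 against wild-type mice (adjusted p = 0.0643). It averaged 27.1 ± 2.18 CPM in sick, 46.4 ± 20.5 CPM in healthy knock-in mice and 39.3 ± 2.68 CPM in wild-type mice, where healthy knock-in mouse 4 alone reached 76.9 CPM. Cmah was the only one of the 5 still called lower with library totals alone, where Slc35a1 stood at 0.10 and Gne at 0.057 against wild-type and Cmas at 0.028 against healthy knock-in mice, and where Slc35a1 was called higher against healthy knock-in mice, at 0.38 (adjusted p = 0.0126). Among relatives of Glb1 and Ctsa, 2 of 3 tested genes were lower in both comparisons. Glb1l averaged 63.3 ± 12.7 CPM in sick, 159 ± 11.3 CPM in healthy knock-in mice and 165 ± 14.3 CPM in wild-type mice, and Glb1l2 averaged 132 ± 43.6, 214 ± 34.7 and 212 ± 32.3 CPM. The call of Glb1l2 was lost without sick mouse 1 or 4 and with library totals alone, where Scpep1, the remaining gene, was called higher, at 0.35 and 0.42.

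Other lysosomal genes moved in both directions. Of 28 other lysosomal glycan-degrading enzymes and activators, 5 were higher and 10 lower in sick against wild-type mice, and 5 and 14 against healthy knock-in mice, with median log2 fold changes of -0.24 and -0.48. Of all genes tested, 25.9% were higher and 25.0% lower against wild-type, and 24.5% and 21.9% against healthy knock-in mice. Galns, a sulfatase of keratan sulfate, averaged 63.9 ± 15.2 CPM in sick, 254 ± 35.1 CPM in healthy knock-in mice and 250.2 ± 61.1 CPM in wild-type mice. The fucosidase Fuca2 averaged 254 ± 77.3, 1013 ± 75.1 and 955 ± 113 CPM, and the sulfatase Arsb 34.2 ± 8.89, 201 ± 46.6 and 119 ± 40.6 CPM. Against wild-type the log2 fold changes of Galns, Fuca2 and Arsb were -1.97, -1.91 and -1.80, beside -1.85 for Glb1 and -1.87 for Neu2. Galc, the galactosylceramidase, fell by 1.53 on the log2 scale against healthy knock-in mice. Hexa, the alpha subunit of beta-hexosaminidase, rose by 1.37 against wild-type, with 98.6 ± 16.1 CPM in sick, 47.7 ± 4.88 CPM in healthy knock-in mice and 38.1 ± 10.9 CPM in wild-type mice. With library totals alone, 13 of the 28 were higher and 7 lower against wild-type, and 12 and 6 against healthy knock-in mice. Of all 15589 genes tested, 8420 were then higher and 1605 lower against wild-type. Against healthy knock-in mice 8581 were higher and 1425 lower.

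Of 12 lysosomal proteases, 5 were higher and 3 lower in sick against wild-type mice, and 4 and 3 against healthy knock-in mice, with medians of 0.30 and 0.08. The cathepsins Ctss, Ctsk, Ctsc and Ctsd rose most. Ctss averaged 162 ± 31.2 CPM in sick, 18.5 ± 3.51 CPM in healthy knock-in mice and 12.8 ± 6.67 CPM in wild-type mice, a log2 fold change of 3.65 against wild-type and 3.13 against healthy knock-in mice. Ctsk followed at 2.90 and 2.68, Ctsc at 2.34 and 1.92, and Ctsd at 1.15 and 1.01. Macrophages are rich in Ctss, and the summed macrophage markers given above were higher in the same mice, while those of the proximal tubule were lower. The part of either cell type in these results, or in those of the 8 genes, was not tested.

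Of 17 genes listed under lysosomal membrane and transport, a list that also holds the lipase Lipa, 5 were higher and 7 lower in sick against wild-type mice. Against healthy knock-in mice 5 were higher and 8 lower, and the medians of the 2 comparisons were -0.22 and -0.14. The amino acid carrier Slc36a1 was at -1.34 and -1.36, the lipase Lipa at -1.28 and -1.13, and the nucleoside carrier Slc29a3 at -0.99 and -1.27. Tmem192 stood at -0.95 against wild-type, and Cln3, a lysosomal membrane protein, at 1.05 against healthy knock-in mice. The 5 higher calls fell to between 2 and 3 without sick mouse 1, 2 or 4, and likewise without wild-type mouse 1 or 4 in the comparison with wild-type and without any of the healthy knock-in mice in the other comparison. Under scaling by totals, 9 of the 17 were higher and 2 lower against wild-type, and 8 and 3 against healthy knock-in mice. Of 9 genes of lysosome biogenesis and targeting, 4 were higher and 3 lower against wild-type, and 3 and 3 against healthy knock-in mice, with medians of 0.24 and 0.22. The sorting receptor Sort1 was at 1.17 and 0.997 and the transcription factor Mitf at 0.65 and 0.66. The mannose 6-phosphate receptors M6pr, at -0.84 and -0.86, and Igf2r, at -0.66 and -1.06, were lower. With library totals alone 8 of the proteases were called higher and 0 lower against wild-type, and 7 and 0 against healthy knock-in mice. The targeting list then held 5 higher and 0 lower calls against wild-type, and 6 and 1 against healthy knock-in mice. Under that scaling 8420 of all 15589 genes tested were called higher and 1605 lower against wild-type. Against healthy knock-in mice 8581 were higher and 1425 lower. The higher calls under library totals in the transport, protease and targeting lists thus stand beside a shift of all genes to the higher side. Not a gene of these 7 lists was called in healthy knock-in against wild-type mice.

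**Figure D4:**
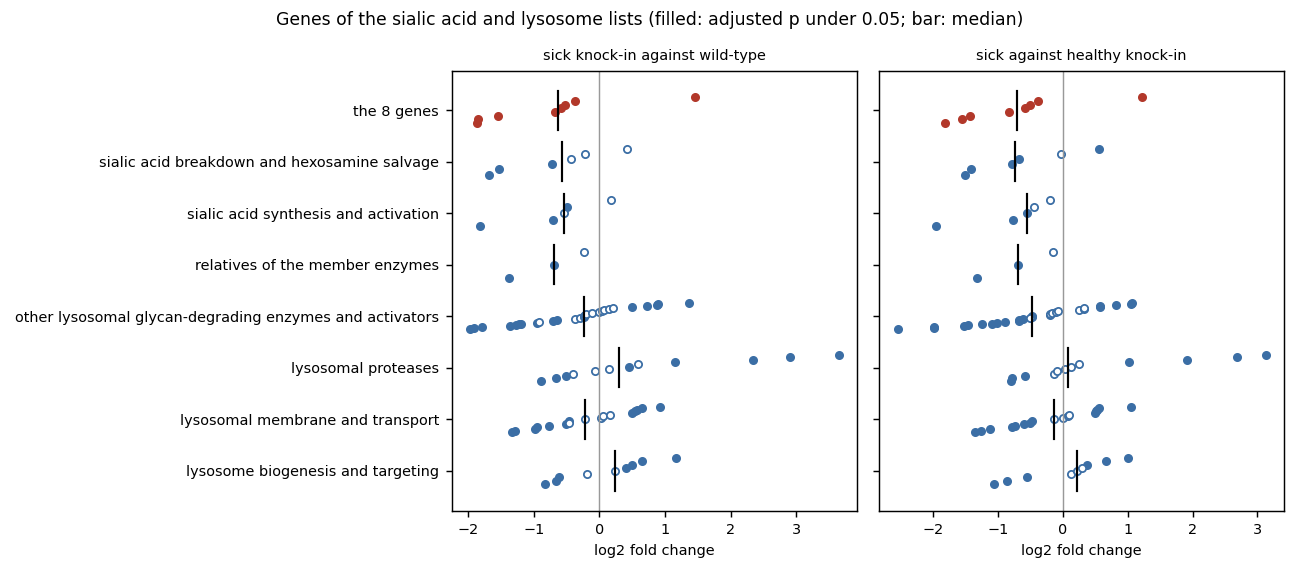
Log2 fold change (x axis) of each tested gene in the 8 genes and in 7 lists of sialic acid and lysosome genes (rows), in sick knock-in against wild-type and sick against healthy knock-in mice with TMM scaling. Filled points had an adjusted p under 0.05, open points did not, and the bar marks the median, which is lowest against wild-type in the 3 relatives of the member enzymes, at -0.69, and highest in the proteases, at 0.30.

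The genes whose pattern was most like each of the 8 were found by the root mean square difference of log2 CPM, centred on the mean of the 12 libraries, among 12993 tested genes with a mean of at least 1 CPM. The genes nearest to Neu1 were Rars2 (0.13 log2 units), Auh and Pgpep1, and its nearest among the 8 was Glb1, at 0.30. Nearest to Glb1 were Smpdl3a, at 0.19, Slc17a1 and Hsd3b2, and nearest to Neu2 were Tinag, at 0.23, Galnt14 and Slc27a2, the last of these a marker of the proximal tubule list. Neu3 lay nearest to Hexa, at 0.17, Zfp385a and F3, and no closer to any of the 8 than 0.85. Ctsa lay nearest to Lgmn, at 0.10, Renbp and Minpp1, of which Lgmn is a lysosomal protease and Renbp the epimerase named above. Slc17a5 lay nearest to Zmpste24, Rnft1 and Ccpg1, Siae to Mlh3, Mtx3 and Tpcn1, and Casd1 to Wdr13, Cog6 and Arcn1, at 0.06 to 0.14. The 12 libraries fall into the sick mice and the rest, so this measure mostly ranks genes by that difference.

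In the authors' deposited table, the log2 fold changes of the 8 genes differed from those given here by at most 0.07. That table gives an adjusted p of 6.20e-06 for Neu1, 2.00e-05 for Neu2, 0.00477 for Neu3 and 3.07e-08 for Glb1 in sick against wild-type mice. The same table gives 0.784 for Slc17a5 and 1 for Ctsa, Siae and Casd1 in that comparison. Against healthy knock-in mice it gives 0.0515 for Neu3 and 0.219 for Slc17a5, with Neu1, Neu2 and Glb1 under 0.05 and Ctsa, Siae and Casd1 above it. DESeq2 run here gave 0.000552 for Slc17a5, 0.00831 for Ctsa, 0.00834 for Siae and 0.0191 for Casd1 against wild-type. The deposited adjusted p-values are thus not comparable with those given here, and why they differ was not tested.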

How the data were processed

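Whole-kidney RNA libraries of 12 mice, 4 per group, were analysed. Libraries were made with Trueseq from DNase-treated total RNA of the miRvana kit, per the labels. TopHat2 2.0.11, Trim Galore 0.3.7, DESeq2 1.12.4, Cufflinks and the build GRCm38 are the names given, per the submitters' processing notes. The deposited table holds the authors' raw count per gene and library, per the file headers, and their log2 fold changes and adjusted p-values. The counting program, annotation and strand setting are not given in the sources used.

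The counts of 15589 genes that pass filterByExpr were scaled by TMM and fitted in edgeR 4.0.16 (R 4.3.3). The fit used all 12 libraries, gave each group a mean of its own and had no covariates. Pairs of groups were then tested by quasi-likelihood F tests, and p-values were adjusted by Benjamini-Hochberg across the 15589 genes, with a threshold of 0.05. The overall biological coefficient of variation came to 0.270. CPM used effective library sizes, and CPM per kb the exon length of GENCODE M21. Of the 39171 genes, 37605 were found there. Promoter sequences are from RefSeq.

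The 8 genes, the 7 pathway lists (named by up to 4 genes with the largest called change) and the 10 marker lists were chosen with earlier results of these data known. Of 156 listed names all were found, 154 by symbol. Alternatives were DESeq2 size factors, library totals alone, upper-quartile scaling, no filter, a filter of 1 CPM in 4 libraries, DESeq2 1.42.0, the 8 libraries of a comparison alone, a replicate block and leaving out each library.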

Additional observations from a re-analysis of the deposited data

Results flagged for a closer look

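Casd1 stood at 30.2 CPM in wild-type mouse 2, far from the 41.8 to 43.9 CPM of the other wild-type mice. Its gap to the next mouse was 0.843 of the range of the group, above Dixon's critical value for 4 samples. Of the 24 sets of 4 mice looked at, for 8 genes in 3 groups, 1 stood out in this way, and chance gives about 1 in 20.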

How the results depend on the processing

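Under the 8 alternatives that leave out no library, Neu1, Neu2 and Glb1 stayed lower and Neu3 higher past the threshold in sick mice in both comparisons. Of the 8 genes, library totals alone called 4 in sick against wild-type and 4 in sick against healthy knock-in mice, in place of 8, and upper-quartile scaling called 5 against wild-type, without Ctsa, Siae and Casd1, and 6 against healthy knock-in mice, without Siae and Casd1. The log2 fold change changed sign under library totals in Ctsa (0.059), Siae (0.010) and Casd1 (0.22) against wild-type and in Siae (0.080) and Casd1 (0.20) against healthy knock-in mice. Scaling by library totals shifts all genes, as its median of 0.61 against wild-type shows. With upper-quartile scaling the median was 0.15 and 0.17 and 60.0% and 61.7% of calls were higher. In healthy knock-in against wild-type mice DESeq2 called 87 genes where edgeR called 49, and the cause was not tested. Leaving out each library in turn, 6 to 8 of the 8 genes were called in either comparison of sick mice and 0 in healthy knock-in against wild-type mice. The same fits called 6815 to 8376 of all genes in sick against wild-type and 6150 to 7363 in sick against healthy knock-in mice. They called 42 to 49 in healthy knock-in against wild-type mice. In that last comparison the sign was not stable for Neu1 (-0.26 to 0.031), Ctsa (-0.033 to 0.22), Glb1 (-0.23 to 0.11), Siae (-0.21 to 0.017) and Casd1 (-0.10 to 0.067). Mice of 1 number in 2 groups correlated at -0.26 to 0.24 in their deviations, so the numbers were not taken as pairs. The replicate block called 7 of the 8 genes in each comparison of sick mice, without Casd1 against wild-type (adjusted p = 0.0540) and without Siae against healthy knock-in mice (adjusted p = 0.0507). It called 7480, 6809 and 44 genes in sick against wild-type, sick against healthy knock-in and healthy knock-in against wild-type mice. With the 8 libraries of sick and wild-type mice alone, Casd1 had an adjusted p of 0.0780. Neu2 and Neu3 rest on 28 to 255 counts per library.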

Other observations

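Other genes of glycolipid breakdown moved in both directions in sick kidneys. They were picked after their values were seen. Gm2a, an activator protein that presents GM2 ganglioside for degradation, averaged 174 ± 35.2 CPM in sick, 371 ± 40.3 CPM in healthy knock-in mice and 335 ± 58.1 CPM in wild-type mice (SD, n = 4 each). In edgeR's test it fell by 0.95 on the log2 scale against wild-type (adjusted p = 0.000613) and by 1.10 against healthy knock-in mice (adjusted p = 0.000265). Scaled by library totals alone, Gm2a was at -0.37 against wild-type (adjusted p = 0.0509). The alpha-galactosidase gene Gla, which also acts on glycolipids, averaged 10.5 ± 0.916 CPM in sick, 5.95 ± 0.511 CPM in healthy knock-in mice and 5.71 ± 0.821 CPM in wild-type mice and rose by 0.88 against wild-type (adjusted p = 0.000632) and by 0.82 against healthy knock-in mice (adjusted p = 0.00112).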
